A study of Homo sapiens with 6 samples.

Results

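HuR sites were examined on 7 cell-cycle transcripts: the cyclins CCNA2, CCNB1, CCND1, CCND2, CCNE1 and CCNE2, and the cyclin-dependent kinase inhibitor CDKN1B. A site belonged to a gene when it overlapped the gene's hg19 span on the gene's strand. The combined list of the 3 HuR replicates held 146 such sites of 658853 in all, and the authors' p-filtered combined list held 98 intervals of 373845. The replicate lists held 76 of 186157 sites for replicate 1, 108 of 405048 for replicate 2 and 130 of 550681 for replicate 3. The mean over the replicates was 105 ± 27.2 sites (SD, n = 3). The spans came with the choice of genes and were not checked against an hg19 annotation, and exons and UTRs were not placed on hg19.

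The samples came from HEK293, a widely used line of human embryonic kidney origin, with no treatment named in the labels. In DO-RIP-seq, cell lysate is digested with micrococcal nuclease, a protein is pulled down with the short RNA fragments it holds, and the fragments are sequenced. There were 3 immunoprecipitations with a mouse antibody to HuR (the ELAVL1 protein) and 3 with normal mouse sera as negative controls, whose separate values were not analysed here. Digested lysate was pooled before it was divided, so if 1 pool served all samples, the spread between replicates is technical. Each site carries the authors' LOD score, above 0, for which no log base is stated in the labels or file headers. Score levels differ between lists, so a score is compared only with others of its own list, as a percentile in which the middle of the list is 50%. Read depth and transcript abundance are unknown, so neither a count of sites nor a gap between them measures how much HuR was bound per RNA molecule.

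Cyclins are the regulatory subunits that switch on cyclin-dependent kinases, and each family acts in its own stretch of the cell cycle. D-type cyclins act early in G1, E-type cyclins at the start of DNA replication, cyclin A2 through replication and into G2, and cyclin B1 at entry into mitosis, while CDKN1B, also called p27, inhibits the kinases. HuR is an RNA-binding protein that prefers U-rich and AU-rich stretches, most often in 3′ untranslated regions (UTRs), where it is known to stabilise mRNAs. Several of these transcripts are long-known HuR targets, and for CDKN1B a contact in the 5′ UTR has been described.

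The 3′ UTRs of these transcripts differ in how much U they hold, which is shown here because U-rich RNA is what HuR is known to bind. In GENCODE 29 transcripts (GRCh38), T (U in the RNA) made up 39.7% of the CCNB1 3′ UTR, at percentile 98.6 of 16022 protein-coding 3′ UTRs of at least 200 nt, whose median was 29.8%. CCNA2 had 36.0%, CCNE2 35.3%, CDKN1B 33.9% and CCND2 31.8%, also above that median. CCND1 had 28.9% and CCNE1 28.6%, below it. The pentamer ATTTA, the core of AU-rich elements, occurred 11 times in CCNE2, 8 times in CCND2, 7 times each in CCND1 and CDKN1B, 4 times in CCNB1, 3 times in CCNA2 and 0 times in CCNE1. It was searched on the transcript strand with overlaps allowed, and 73.3% of all these 3′ UTRs held it. The 3′ UTRs differ in length, and per kb the order was another. ATTTA occurred 6.51 times per kb in CCNB1, 5.91 in CCNE2, 5.21 in CDKN1B, 2.51 in CCNA2 and 2.19 in CCND1. In CCND2 it occurred 1.50 times per kb, below the median of 1.74 per kb. The pentamer TTTTT occurred 93 times in CCND2, where a run of 6 counts as 2, and 9 times in the short CCNE1 3′ UTR. Per kb this was 17.4 in CCND2 and 16.9 in CCNE1 against a median of 5 per kb, and 81.7% of all 3′ UTRs held at least 1. CCNB1 had 4.89 per kb, just below that median, and the remaining genes had from 8.15 (CCND1) to 11.2 (CDKN1B). The 30-nt stretch richest in T is printed below for each of 5 genes, with runs of at least 5 T in capitals. These stretches come from another genome build and were not matched to the sites.
CCNA2: tcttcTTTTTTcttcttttcactggctttt
CCNB1: ttttcattttggttttgtgttttggttaat
CCND1: tgccTTTTTTgtagTTTTTTTTTTTTTTat
CCNE1: TTTTTTattgaatgcttataggTTTTTTTT
CDKN1B: tttgttgacaaaattttctcattttctttt
The CCND1 stretch held 23 T and lay 1039 nt from the 3′ end of its transcript, and 14.9% of all 3′ UTRs reached that number. CCNA2, CCNB1 and CCNE1 reached 20 T, as did 37.6% of all 3′ UTRs, and CDKN1B reached 18 T, as did 60.6%. A long 3′ UTR has more chances to reach a high number, and that of CCND1, with 3192 nt, was at percentile 83.8 for length.

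Sites on these genes recurred between replicates more often than sites in the lists at large, while their scores were low in the full lists. Of the 146 combined sites, 61 (41.8%) overlapped a site in all 3 replicate lists, against 22.9% of all combined sites. A further 26 overlapped 2 lists, 37 overlapped 1, and 22 (15.1%) overlapped none, against 11% of all combined sites. Seen from each replicate list, 68 of its 76 member sites in replicate 1 (89.5%, against 89.1% of that whole list) overlapped a site in both other lists, 62 of 108 in replicate 2 (57.4%, against 37.8%) and 70 of 130 in replicate 3 (53.8%, against 28.4%). Of the bases called in any replicate within the 7 spans, 38.9% (4070 of 10469 nt) were called in all 3, against 21.8% over all lists. This excess was not seen with each list limited to its 186157 highest-scoring sites, where the share of member sites found in all 3 was 13.7%, against 13.1% of all combined sites. That setting equalises the lists and also removes low scores, and the 2 were not separated. Without replicate 1 the excess was smaller, with 57.5% of member sites in both remaining lists against 51.2% of all combined sites. For some other settings, such as a LOD above 1 or 2, the share of all sites in all 3 lists was not computed. The median member site stood at percentile 32.3 of the scores in replicate 1, 33.4 in replicate 2 and 21.3 in replicate 3. Their mean was 28.98 ± 6.70 (SD, n = 3). It was 48.7 in the lists of equal size and 47.0 among sites with a LOD above 2, near the middle of those lists.

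Both ends of the score range were represented. Scores below a combined LOD of 2 were found at 29 of the 146 sites (19.9%), against 6.49% of all combined sites, and CCND2 alone held 16 of these 29. Of these 29 sites, 4 overlapped all 3 replicate lists (13.8%), against 1.17% of all sites with such scores. Scores above 10 were found at 32 sites (21.9%), against 19.5% of all combined sites, and 25 of the 32 overlapped all 3 lists (78.1%), against 77.1%. The p filter kept 80 of the 146 sites (54.8%), against 52.3%, including 57 of the 61 found in all 3 lists and 0 of the 22 found in none. When at least 50% of each interval had to be shared with the filtered one, the member share was 36.3%, below the 41.7% of all sites.

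**Figure D1:**
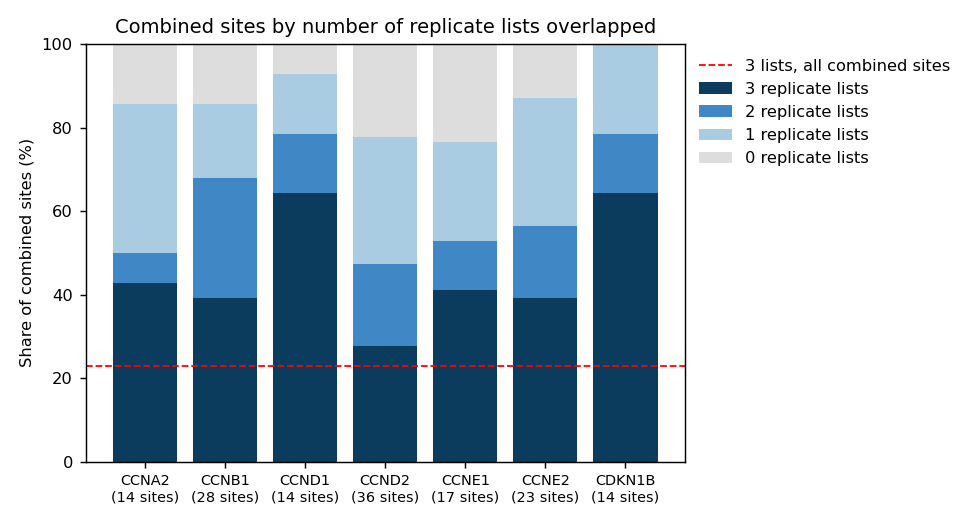
Share of each gene's combined sites (y axis, %) that overlapped 3, 2, 1 or 0 replicate lists, with the share of all combined sites found in 3 lists as a dashed line at 22.9%. CCND1 and CDKN1B had the highest share in 3 lists, 64.3% each, and CCND2 the lowest, 27.8%.

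Recurrence differed between genes. In CCND1 and in CDKN1B 9 of 14 combined sites were found in all 3 lists (64.3%). The shares were 42.9% for CCNA2 (6 of 14), 41.2% for CCNE1 (7 of 17), 39.3% for CCNB1 (11 of 28), 39.1% for CCNE2 (9 of 23) and 27.8% for CCND2 (10 of 36). Every CDKN1B site was seen in at least 1 replicate, while 8 CCND2 sites were seen in none. By bases, CCND1 again led with 55.5% of 1100 nt called in all 3, and CCNE2 was lowest with 25.6% of 1327 nt. CCNE2 was again lowest without replicate 2 (34.2%) and without replicate 3 (30.2%), but its low place did not hold under 2 other settings. Without replicate 1 its share was 67.6%, where the genes ranged from 60.1% (CCND2) to 79.4% (CCND1). With lists of equal size the CCNE2 share was 32.5%, above all but CCND1 (37.8%), while CCNE1 was then lowest with 12.3%. Of the 26 member sites found in 2 lists, 23 were missing from replicate 1 alone, the shortest list. A further 37 sites were found in 1 list and 22 in none. Without replicate 1, 57.5% of the member sites were found in both remaining lists, against 51.2% of all combined sites.

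**Figure D2:**
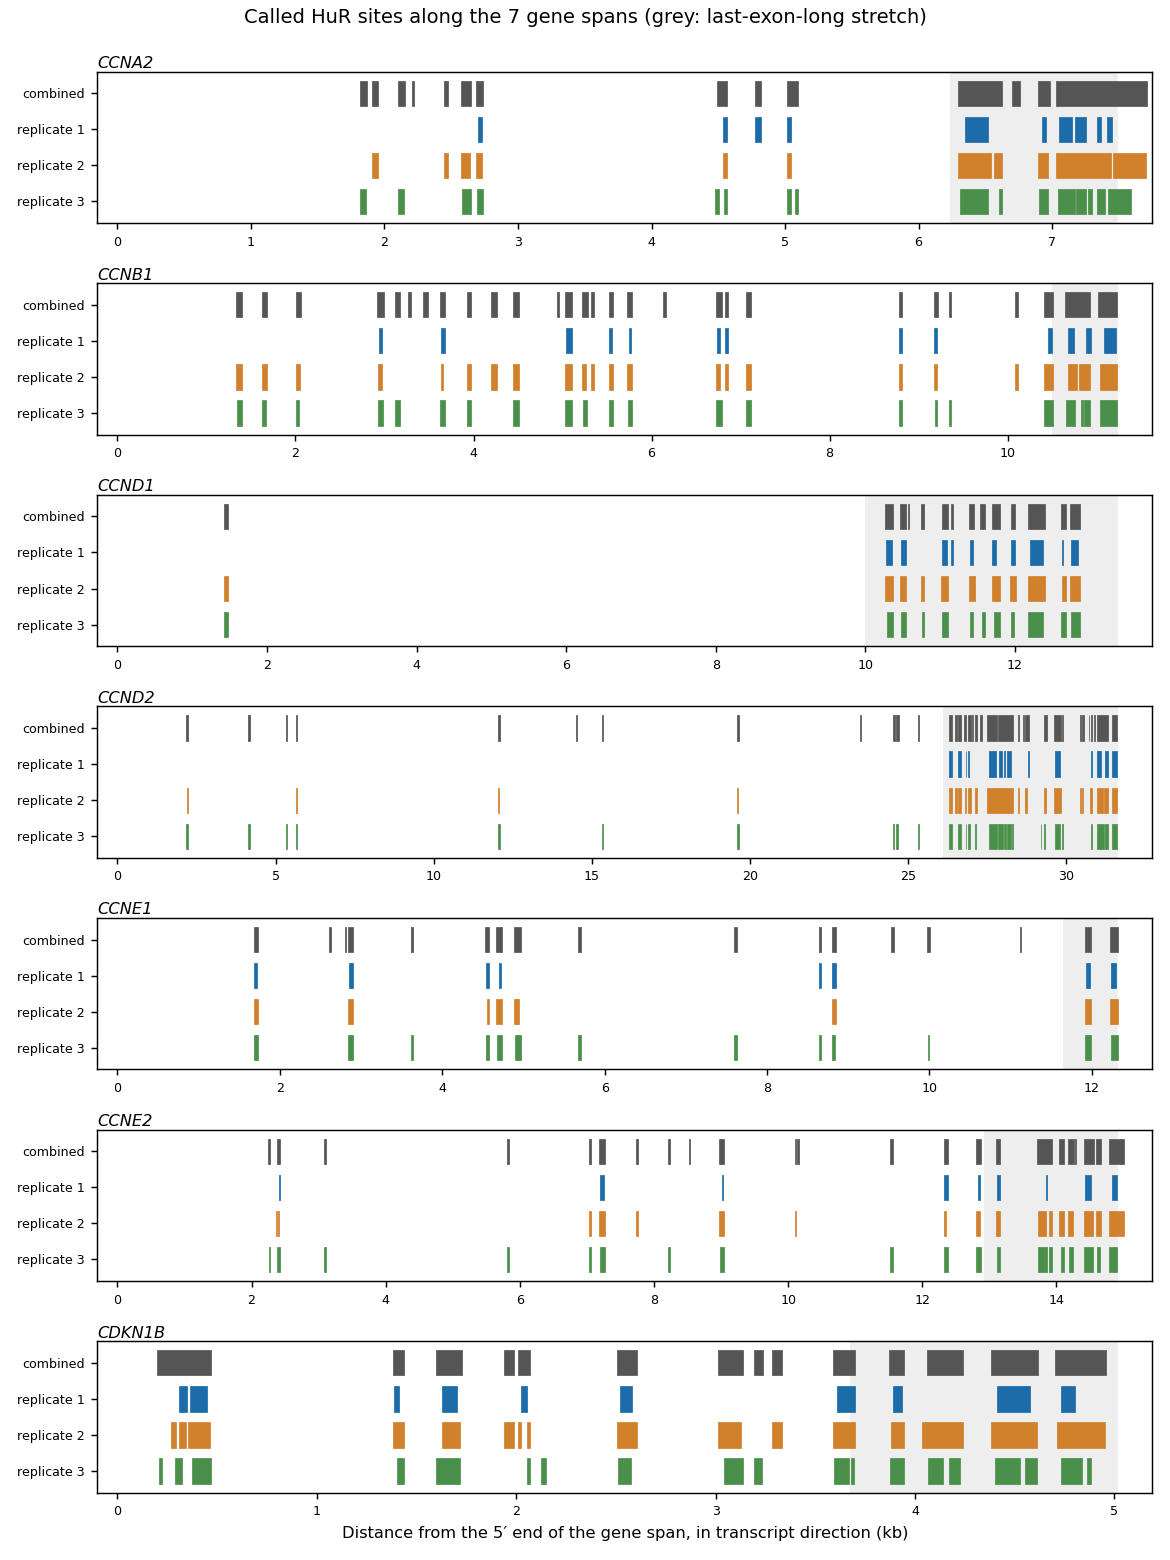
Sites in the combined list and in each HuR replicate along the 7 spans, drawn in transcript direction from the 5′ end (x axis, kb; each bar is 1 site). The grey stretch at the 3′ end is as long as the last exon of the GENCODE transcript, and all replicate 1 sites of CCND1 and CCND2 lie in it.

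Density per kb of span was highest on the inhibitor. CDKN1B had 137, 302 and 228 called nt per kb in replicates 1, 2 and 3, which average 222 ± 82.9 (SD, n = 3). CCNA2 followed with 77.4, 140 and 126 nt per kb, and CCNB1 with 58.3, 127 and 117. These 3 genes held the first 3 places, in this order, in every replicate. Their values overlapped across replicates, so the order holds within each replicate only. Replicate 1 was the lowest for every gene. CCND1 had 64.8 ± 12.8 nt per kb, CCND2 59.6 ± 18.6, CCNE2 58.4 ± 27.2 and CCNE1 39.7 ± 11.0 (SD, n = 3 each). CCND1 was above CCND2 in each replicate, by 50.9 to 38.6, 75.9 to 73.7 and 67.7 to 66.6 nt per kb, and the last 2 of these gaps were far smaller than the spread between replicates. CCNE2 took the last place in replicate 1, with 27.2 nt per kb, and the fourth in replicate 3, with 76.8, so its place was not settled. With 3 replicates of 1 kind and no values for the control samples, no test between groups could be run, and these densities were not corrected for RNA abundance or for the length of introns in the span.

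**Figure D3:**
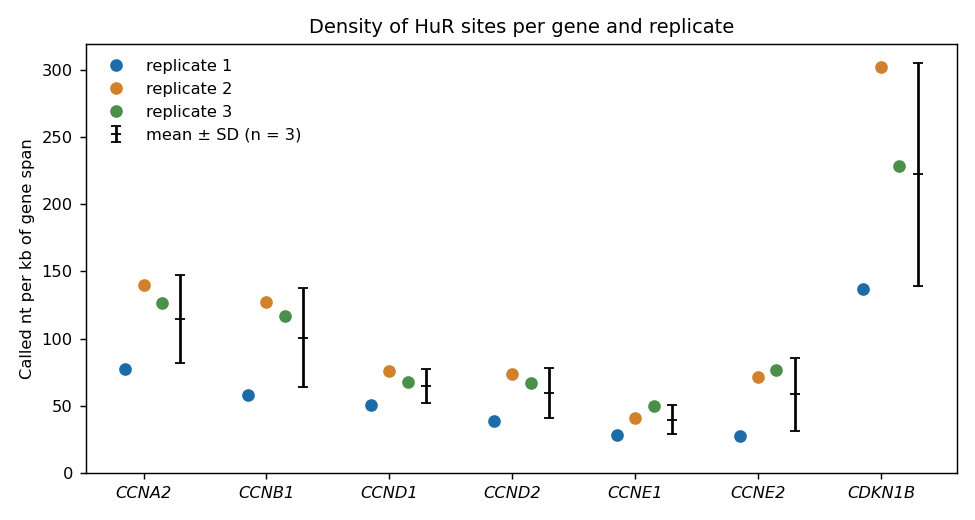
Called nt per kb of gene span (y axis) for each gene, with 1 point per HuR replicate and the mean ± SD (n = 3) beside them. CDKN1B was highest in each replicate, and replicate 1 gave the lowest value for every gene.

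CCND1 encodes cyclin D1, the partner of CDK4 and CDK6 in early G1. Its sites were gathered at the 3′ end of the span (chr11:69455873-69469242, plus strand, 13370 nt). Replicates 1, 2 and 3 held 10, 11 and 12 sites covering 680, 1015 and 905 nt. Of 14 combined sites, 13 lay in the last 3357 nt of the span, a stretch as long as the last exon of the GENCODE transcript, which is nearly all 3′ UTR (3192 nt). In replicate 1 that stretch held 100% of the called bases, in replicate 2 95.1% and in replicate 3 93.4%, although it makes up 25.1% of the span. The single site outside it, 1423 nt from the start of the span, had a combined LOD of 11.5, was found in replicates 2 and 3 and was not kept by the p filter. The highest combined score among CCND1 sites found in all 3 lists was 15.9 at chr11:69468606-69468735, 507 nt from the end of the span, where the replicate scores stood at percentile 86.3, 89.8 and 95.1. The longest run called in all 3 replicates, 170 nt at chr11:69468071-69468240, ended 1002 nt from the end of the span. The 5 kb before the span and the 5 kb after it held 0 called nt on its strand in all 5 lists.

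CCND2 encodes cyclin D2, which acts on the same kinases as cyclin D1. It had the longest span (chr12:4382902-4414522, plus strand, 31621 nt) and the most sites, with 16, 22 and 29 in replicates 1, 2 and 3. It held 26.7%, 26.2% and 25.8% of the bases called on the 7 genes in those lists, a share that varied little although the lists differ in size. The last 5491 nt, again as long as the last exon, took 100%, 93.1% and 75.3% of its called bases while making up 17.4% of the span. The 12 combined sites before that stretch included 0 found in replicate 1, 4 found in replicate 2 and 10 found in replicate 3.

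Within that 3′ stretch of CCND2, very high and very low scores lay close together. All 16 of its sites with a LOD below 2 lay there, among 24 sites with a median LOD of 1.61. The highest score found in all 3 lists was 12.6 at chr12:4413886-4414235, a site of 350 nt whose best replicate intervals stood at percentile 98.7, 95.2 and 98.6, a mean of 97.5 ± 1.96 (SD, n = 3). The p-filtered list cut this site into 4 intervals. One of them, the 70 nt at chr12:4414121-4414190, carried a LOD of 31.6 and ranked 15 among the 373845 intervals of that list. It ended 332 nt from the end of the span. The longest run called in all 3 replicates on any of the 7 genes was also in CCND2, with 215 nt at chr12:4410471-4410685. GENCODE also lists a protein-coding gene model, AC008012.1, overlapping CCND2 on its strand, and sites of both could not be told apart.

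CCNE1 and CCNE2 encode the E-type cyclins, which activate CDK2 at the start of DNA replication. CCNE1 (chr19:30302901-30315215, plus strand, 12315 nt) had 8, 8 and 13 sites in replicates 1, 2 and 3, and CCNE2 (chr8:95892564-95907474, minus strand, 14911 nt) had 9, 17 and 19. The share of bases at the 3′ end was larger on CCNE2. On CCNE1 the last-exon-long stretch of 654 nt held 31.9%, 32.7% and 24.4% of the called bases in replicates 1, 2 and 3. On CCNE2 the stretch of 1976 nt held 53.1%, 66.1% and 57.6%, so the ranges of the genes did not overlap, but the CCNE2 stretch is also the larger part of its span, at 13.3% against 5.31%. Relative to the rest of the span, density in the stretch was 8.35, 8.65 and 5.75 times as high on CCNE1 in replicates 1, 2 and 3, and 7.41, 12.8 and 8.91 times as high on CCNE2. Neither gene was the higher in every replicate, so this ratio did not separate them. The last 25% of the span, an equal part of both genes, did. It held 31.9%, 32.7% and 26.8% of the called bases on CCNE1 in replicates 1, 2 and 3. On CCNE2 it held 75.3%, 74.6% and 72.9%.

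The leading CCNE1 site was far from the 3′ end. Its combined LOD of 13.2 was at chr19:30304581-30304635, 1680 nt from the start of the span, and the replicate scores stood at percentile 38.4, 93.5 and 84.5, so replicate 1 was well below the others. The last 2 sites of CCNE1, both found in all 3 lists, began 11910 and 12225 nt from the start of the span. The second of these held the longest CCNE1 run called in all 3 replicates, 60 nt, which ended 15 nt before the end of the span. Only 1 member site, in CCNB1, scored higher in the combined list than the leading pair of CCNE2 sites. A LOD of 18.1 at chr8:95892921-95893055 stood at percentile 97.5, 99.6 and 97.5 in the replicates, a mean of 98.2 ± 1.24 (SD, n = 3). The site with a LOD of 16.6 at chr8:95892471-95892690 ran 93 nt past the end of the span, and its replicate scores stood at percentile 87.4, 96.3 and 73.7. The 5 kb after the CCNE2 span held 90, 138 and 175 called nt on its strand in replicates 1, 2 and 3. The GENCODE gene covers 16909 nt on GRCh38, more than the 14911 nt of the span. Whether the span and its stretch reach the 3′ end of the CCNE2 RNA was not tested.

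CCNA2 encodes cyclin A2, active through S phase. Its span (chr4:122737599-122745088, minus strand, 7490 nt) held 10, 11 and 16 sites covering 580, 1047 and 947 nt in replicates 1, 2 and 3. The last-exon-long stretch of 1243 nt held 77.6%, 78.0% and 69.9% of the called bases and makes up 16.6% of the span. The site with the highest score found in all 3 lists, a LOD of 11.6, covered 335 nt at chr4:122738461-122738795, and its replicate scores stood at percentile 91.3, 92.2 and 86.8. The p-filtered list, where an interval can be narrower than its combined site, held 110 nt within it, at chr4:122738566-122738675. That interval had a LOD of 23.8, at percentile 99.3 of the p-filtered list. CCNA2 intervals as a whole scored low, with medians at percentile 9.09, 12.6 and 5.44 of the 3 lists. The widest combined site on any of the 7 genes, 675 nt with a LOD of 7.26, lay at the CCNA2 3′ end and ran 218 nt past the span. Called bases also lay beyond the span, with 1205 nt in the 5 kb before it and 778 nt in the 5 kb after it in the combined list. That is 241 and 156 nt per kb, against 192 within the span. Before the span, replicates 1, 2 and 3 had 72, 162 and 174 nt per kb, against 77.4, 140 and 126 within it. Which RNA these flanking bases belong to was not determined.

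CCNB1 encodes cyclin B1, which drives entry into mitosis with CDK1. It held the highest combined score, and many of its sites lay away from the 3′ end. Replicates 1, 2 and 3 held 13, 23 and 22 sites in its span (chr5:68462837-68474070, plus strand, 11234 nt), and their median scores stood at percentile 61.8, 54.4 and 39.3. In all 3 replicates these medians were above those of CCNA2, CCND2 and CDKN1B, whose highest was 18.9, and above those of CCNE2. In replicate 2 CCND1 (69.6) and CCNE1 (63.4) stood higher than CCNB1. The highest combined score among all member sites, a LOD of 21.0, was at chr5:68467866-68467945, 5029 nt from the start of the span and 6125 nt from its end. It stood at percentile 99.9 of the combined list, and its replicate scores at 88.4, 99.8 and 99.7. Of 28 combined sites, 26 lay before the last-exon-long stretch of 722 nt, and 9 of these 26 were found in all 3 lists. The stretch itself still held 38.9%, 29.9% and 29.5% of the called bases while making up 6.43% of the span. The last site of CCNB1, with a LOD of 14.8 at chr5:68473851-68474065, ended 5 nt before the end of the span and held its longest run called in all 3 replicates, 135 nt.

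CDKN1B encodes the p27 inhibitor and was the shortest span (chr12:12870302-12875316, plus strand, 5015 nt). It held 10, 16 and 19 sites covering 685, 1515 and 1145 nt, or 13.7%, 30.2% and 22.8% of the span, in replicates 1, 2 and 3. Its sites were wide, with a combined median of 105 nt against 50 nt over the whole list, and low in score, with medians at percentile 18.9, 8.99 and 10.5. The first site, 270 nt wide, began 199 nt from the start of the span and was found in all 3 lists with a combined LOD of 4.23. Its best intervals stood at percentile 30.7, 11.1 and 38.9 of replicates 1, 2 and 3, and the p filter kept 70 nt of it. The transcript in GENCODE has a 5′ UTR of 716 nt, but the site was not placed on it. The highest score was a LOD of 11.9 at chr12:12873891-12874000, with replicate scores at percentile 89.7, 49.8 and 72.8, a wide spread. The last-exon-long stretch of 1336 nt held 43.8%, 50.5% and 46.3% of the called bases and makes up 26.6% of the span. That was the smallest excess of the 7 genes, with 2.51 times the density of the rest of the span. The 5 kb after the span also held called bases on its strand, 145, 355 and 320 nt in replicates 1, 2 and 3. The GENCODE gene covers 7314 nt on GRCh38, more than the 5015 nt of the span. Whether the span and its stretch reach the 3′ end of the CDKN1B RNA was not tested. GENCODE lists a sense intronic RNA, AC008115.3, overlapping CDKN1B on its strand, and its sites could not be told apart from those of CDKN1B.

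**Figure D4:**
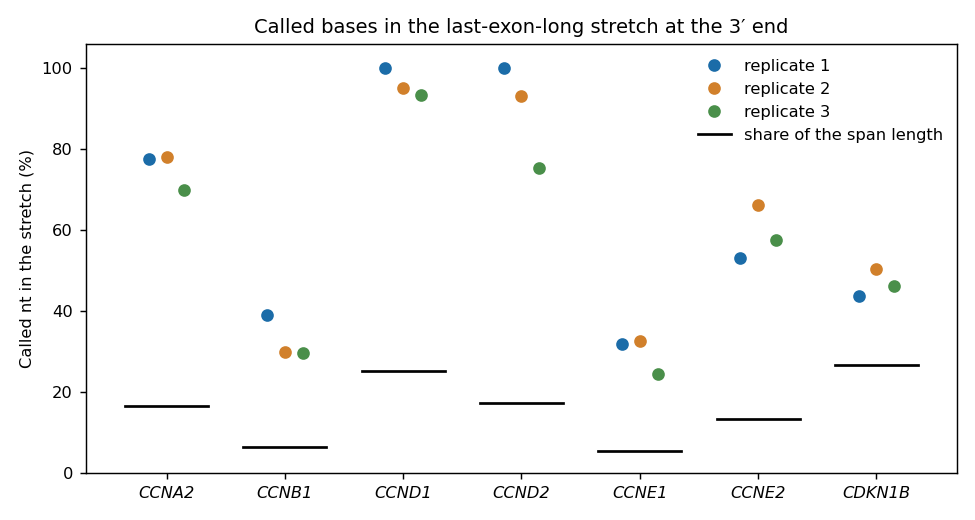
Share of each gene's called bases (y axis, %) that lay in the last-exon-long stretch at the 3′ end, with 1 point per HuR replicate and a black line for the share of the span that the stretch makes up. All 21 points lie above their line, from 24.4% on CCNE1 in replicate 3 to 100% on CCND1 and CCND2 in replicate 1.

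Across the 7 genes, called bases were concentrated at the 3′ end in every list. The last 25% of each span's length held 64.8% of the combined bases, and 74.9%, 70.7% and 65.2% of those in replicates 1, 2 and 3, a value that would be 25% as well if bases were spread evenly. Without CCND2 the combined share was 56.5%. The last-exon-long stretches made up 15.4% of the summed spans and held 70.7%, 67.5% and 59.0% of the called bases in replicates 1, 2 and 3. They held 74.7% of the bases called in all 3. Sites with their middle in these stretches were found in all 3 lists at 33 of 57 (57.9%), and sites before them at 28 of 89 (31.5%), both above the 22.9% of all combined sites. They were also wider, with a median of 80 nt against 50 nt. Replicate 3 held like shares of both kinds, 73.7% and 73.0%, whereas replicate 1 held 61.4% of the 3′ sites and 34.8% of the others. Over the 7 genes the median combined LOD was 4.76 for the 3′ sites and 5.48 for the others, but the genes differed in direction. The 3′ median was the higher in CCNA2 (5.52 against 4.05), CCNB1 (10.7 against 7.66), CCNE1 (9.41 against 5.19), CCNE2 (6.59 against 5.03) and CDKN1B (5.71 against 5.14). It was the lower in CCND2 (1.61 against 5.45), which held 24 of the 57 3′ sites and 16 of the 19 with a LOD below 2, and CCND1 had only 1 site outside the stretch. These shares were not corrected for the amount of RNA present in each stretch or for introns in the span. Without an hg19 annotation the same shares over all genes were not computed, so whether these are unusual was not tested.

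The 10 highest combined scores among member sites were shared by 4 genes, and each of the 10 was found in all 3 replicate lists and kept by the p filter. CCND1 held 4 of them, CCNB1 3, CCNE2 2 and CCNE1 1, with LOD scores from 12.7 to 21.0. Besides those given above, these were the CCNB1 site at chr5:68473241-68473350 with a LOD of 15.5, and the CCND1 sites at chr11:69468041-69468270 with 14.2, chr11:69466891-69466970 with 13.6 and chr11:69466341-69466420 with 12.7. The CCNB1 site with a LOD of 21.0 and the CCNE1 site lay 6125 and 10580 nt from the end of their spans. The other 8 lay at most 2822 nt from the end or ran past it. The share of all member sites lying this near the end was not computed. Member sites found in all 3 lists had a median combined LOD of 8.66 against 11.2 for all such sites, and those found in none had 1.46 against 3.12.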

How the data were processed

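HuR immunoprecipitates of HEK293 cells were analysed from interval lists for 3 replicates and 2 combined lists. Reads were processed with cutadapt 1.0 and TopHat2 2.0.8 and the build was hg19 (GRCh37), per the submitters' processing notes. Neither labels nor headers state how the authors made the intervals and their LOD score. The deposited score is above 0 in every list, and 1 combined list was limited at p 0.05, per the names of the deposited lists. Interval ends lie on a grid of 5 nt. Depth is unknown.

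Sites overlapping a span by at least 1 nt on its strand were taken, bases were clipped to the span, and scores were turned into percentiles within each list, with Python 3.11.15, numpy 2.4.6, pandas 2.3.3, scipy 1.17.1, matplotlib 3.10.9 and bedtools 2.31.1. Groups and replicate numbers follow the sample titles. The genes and measures were chosen with earlier results of these data known. The last-exon-long stretch, the LOD bounds of 2 and 10 and the sequence counts were chosen after the sites were seen. The named sites are, per gene, the highest combined LOD found in all 3 lists and the longest run called in all 3, and the 10 highest combined scores; others were named after their values were seen. Stretch lengths and sequences are from GENCODE 29 on GRCh38, and no coordinate was carried to hg19. T-rich stretches of 2 genes are not reported here. No hg19 annotation was used, so 16 other cell-cycle genes and genes alike in pattern were not counted. The code recovered the number of replicate lists for 100% of 658853 simulated sites. These were of equal width and never touched, so the check did not cover wide sites or sites split between lists.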

Additional observations from a re-analysis of the deposited data

Results flagged for a closer look

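Sites on the opposite strand of the 7 spans lay outside the main measurement. The combined list held 10 of them, against 146 on the genes' own strand. They are listed because 10 is above the 3 that a count of 0 allows, a low bar, and without an hg19 annotation no opposite-strand share over all genes was computed, so whether 10 is unusual was not tested. There were 4 in CCNE2, 3 in CDKN1B, 2 in CCNA2 and 1 in CCND1, and replicates 1, 2 and 3 held 0, 7 and 7. The highest score was a LOD of 10.3 at chr4:122737701-122737780, opposite the CCNA2 3′ end, found in 2 replicate lists and kept by the p filter. GENCODE on GRCh38 lists, among others, the opposite-strand genes EXOSC9 at CCNA2, LTO1 at CCND1 and INTS8 and NDUFAF6 at CCNE2, and it lists no opposite-strand gene at CDKN1B.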

How the results depend on the processing

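No value is signed, so a direction exists only against all sites, and there 1 turned: the p filter kept more member sites than of all sites (54.8% against 52.3%), but fewer with at least 50% of each interval shared (36.3% against 41.7%). A site count was called moved past a ratio of 1.5, a percentile or 3′ share past the SD over replicates, and other shares outside a 95% Wilson interval, which for bases is too narrow. At LOD above 1 the median percentile was 39.95. At LOD above 2 it was 47.0, bases in all 3 made up 36.0% and the p filter kept 65.8% (all sites 55.9%). With equal lists there were 50.3 member sites per replicate (76, 41 and 34), bases in all 3 were 26.0%, sites in all 3 lists 13.7% and the median percentile 48.7. With at least 50% of each interval shared, sites in all 3 lists were 26.0% (all sites 13.4%). Among p-filtered intervals, bases in all 3 were 70.1% and intervals in all 3 lists 67.3% (all intervals 42.5%). With intervals wholly inside the span, and likewise without CCND2, bases in all 3 were 37.6%, and without CCND2 the last 25% of the spans held 56.5%. The last 2 kb held 45.9%. Leaving out each replicate in turn, sites per replicate ranged from 92 to 119, bases common to both remaining replicates from 46.6% to 65.8%, sites common to both from 42.5% to 57.5% and the median percentile from 26.8 to 32.8. The highest values for bases and sites came without replicate 1 (all sites 51.2%), and 2 lists are also easier to satisfy than 3. For single genes, 28 of 28 alternatives for bases in all 3 moved. Unknown depth limits every statement on a missing site. No paired analysis was possible because the negative control samples have no values in the files used here.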
